A study of Mus musculus with 4 samples.

Results

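The JAK kinases and STAT transcription factors were followed as a family of 9 genes, namely Jak1, Jak2, Jak3, Tyk2, Stat3, Stat4, Stat5a, Stat5b and Stat6. They were chosen by name, and all 9 were among the 18193 genes with a probe set that the platform annotation assigns to 1 gene symbol alone. All 9 were also bright enough to be among the 12252 genes tested. GPR15positive samples were GFP+ CD4+ T cells and GPR15negative samples were GFP- CD4+ T cells. Both were sorted from the large intestine lamina propria, the connective tissue under the gut epithelium, of mice on a 129/B6 mixed background. In both groups the mice were heterozygous for GFP placed in the GPR15 locus, so GFP served as the marker of GPR15, a chemoattractant receptor through which T cells home to the large bowel. Each group had 2 Affymetrix arrays, numbered replicate 1 and replicate 2, and so few arrays limit the precision. The number and age of the mice behind each array are not given, and the p-values reflect only how far these samples spread. The design text once writes the GFP- cells as lacking CD4, whereas the sample labels call them CD4+, and Cd4 was present on all 4 arrays.

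JAK kinases sit on the inner tails of cytokine receptors that have no kinase of their own. When a cytokine brings a pair of receptor chains together, the JAKs phosphorylate each other, the receptor and the docked STAT proteins, which then pair and enter the nucleus to switch on genes. In CD4 T cells STAT5 relays interleukin-2 and is needed for Foxp3 expression, STAT3 relays interleukin-6, interleukin-10 and interleukin-21, STAT4 relays interleukin-12 towards the Th1 fate, and STAT6 relays interleukin-4 towards the Th2 fate. The arrays measured the RNA of these genes, not the phosphorylation of their products.

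The arrays followed the sort. Gpr15 had signals of 619 and 729 on the GPR15positive arrays, against 146 and 162 on the GPR15negative arrays, and its log2 difference was 2.02 (95% interval 1.48 to 2.56, adjusted p = 0.0829 from limma). Cd4 and Cd3e, which define the sorted cells, had differences of -0.01 and -0.16. In replicate 1 the X-inactivation RNA Xist had 4313 in GPR15positive cells, against 4172 in GPR15negative cells, and in replicate 2 it had 112 in GPR15positive cells, against 55.1 in GPR15negative cells, while the Y-linked gene Eif2s3y ran the other way. The replicate numbers thus differ in sex, so the arrays of a group came from different animals. For the chosen probe set of each of the 9 genes the difference within each replicate number is given beside the pooled one. Markers of other cells were uneven. The 8 epithelial markers summed to signals of 1909 and 611 on the GPR15positive arrays, against 645 and 657 on the GPR15negative arrays. Among them the adhesion gene Epcam had 246 and 175 in GPR15positive cells, against 72.3 and 42.5 in GPR15negative cells. The keratin gene Krt18 had 225 and 76.5 in GPR15positive cells, against 38.2 and 50.6 in GPR15negative cells. Within replicate 2, Krt8, Krt20, Vil1, Cdh1, Muc2 and Lgals4 were lower in GPR15positive cells. There Krt8 had 83.2 against 118 in GPR15negative cells, and Cdh1 had 63.9 against 129. The 6 B and plasma cell markers had the highest sum of the other cell types, at 6871 and 4506 in GPR15positive cells, against 4170 and 4880 in GPR15negative cells, with the immunoglobulin joining chain gene Jchain at 6219 and 4093 in GPR15positive cells, against 3852 and 4455 in GPR15negative cells. The 10 myeloid markers summed to 251 and 1356 in GPR15positive cells, against 191 and 316 in GPR15negative cells. Among them the defining gene Csf1r had 35.5 and 164 in GPR15positive cells, against 7.73 and 10.7 in GPR15negative cells. Fcgr1 went the other way, with means of 16.2 in GPR15positive cells and 20.9 in GPR15negative cells. Within replicate 1, Adgre1 had 4.91 in GPR15positive cells, against 26.7 in GPR15negative cells. Fcgr1, Adgre1, Cd14, Lyz2 and C1qb overlapped between groups. Markers of regulatory T cells, with Foxp3 at 441 and 472 in GPR15positive cells against 76.6 and 72.2 in GPR15negative cells, had positive differences for 8 of 8 tested members and summed to 17259 and 14896 in GPR15positive cells, against 9358 and 8975 in GPR15negative cells. In bulk RNA, more cells of a type and more RNA per cell cannot be told apart, and the part of these cell types in the values below was not tested.

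No JAK or STAT gene passed the test at an adjusted p under 0.05 with limma, where 0.0326% of all tested genes did. None of the 9 had an unadjusted p under 0.05 either, where 14.6% of all tested genes did. The groups did not overlap for 5 of the 9 genes, against 47.4% of all tested genes. Of these, Jak2, Stat4, Stat5a and Stat5b lay higher in GPR15positive cells (28.7% of all tested genes) and Jak1 lay lower (18.7%). These shares are near the background, so they are no result about the family. Of the 9 differences 7 were positive, as were 57.7% over all tested genes. The differences, on the log2(signal + 16) scale, ran from -0.37 for Jak1 to 0.50 for Stat6. Their median was 0.17, beside 0.07 over all tested genes.

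**Figure D1:**
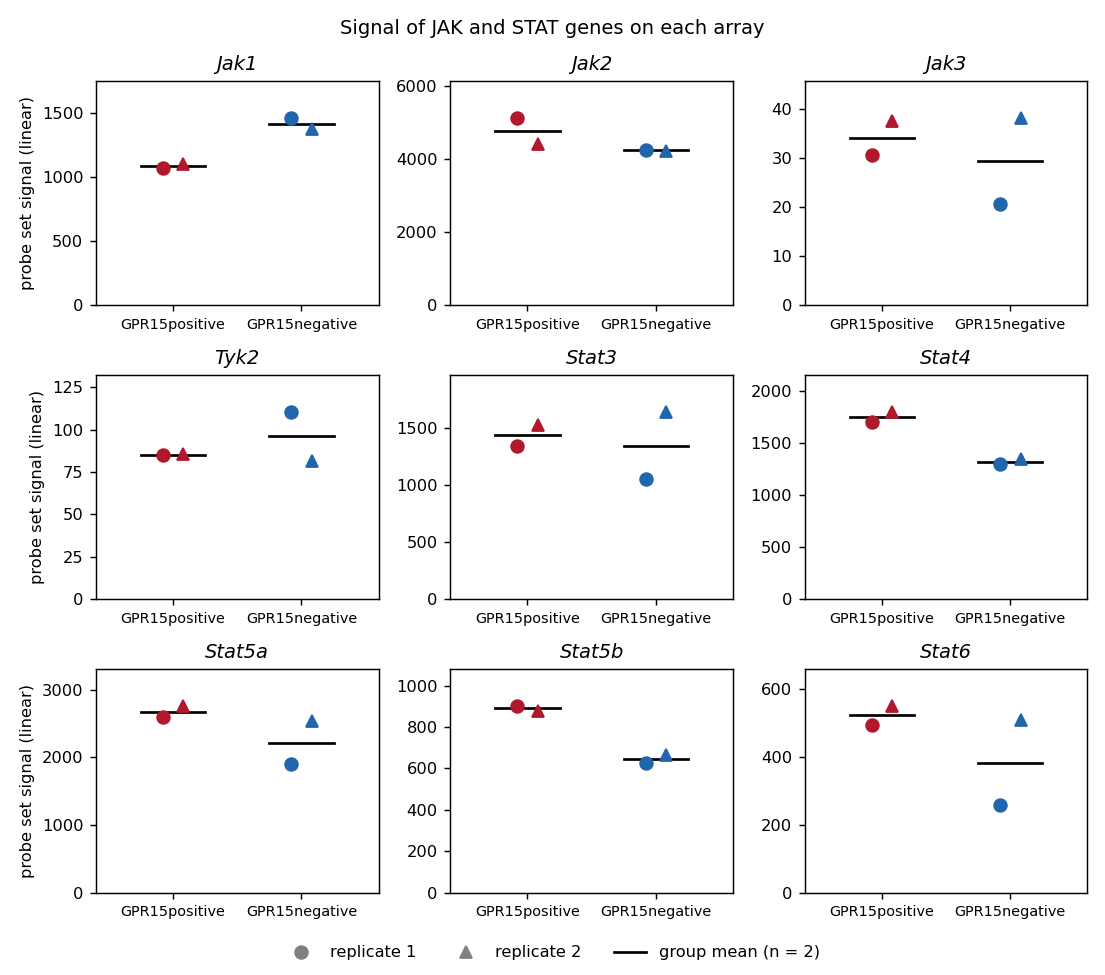
Signal of the chosen probe set of each of the 9 genes (linear scale, from 0) on each array, with GPR15positive arrays left of GPR15negative arrays. Circles are replicate 1, triangles are replicate 2 and bars are the means of 2 arrays; the groups stay apart for Jak1, Jak2, Stat4, Stat5a and Stat5b and overlap for Jak3, Tyk2, Stat3 and Stat6.

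Among the kinases, Jak1 and Jak2 lay on opposite sides. Jak1, which serves receptors of the gamma chain, interleukin-6, interleukin-10 and interferon families, had signals of 1073 and 1105 in GPR15positive cells, against 1457 and 1376 in GPR15negative cells. The 2 groups stood clear of each other, and the difference was -0.37 (95% interval -0.88 to 0.13, adjusted p = 0.460), or 0.77-fold. It was -0.44 within replicate 1 and -0.31 within replicate 2, and it stayed between -0.69 and -0.30 in 15 alternative fits. Another Jak1 probe set had 137 and 137 in GPR15positive cells, against 258 and 189.9 in GPR15negative cells, a difference of -0.64. The third had 771 and 595 in GPR15positive cells, against 718 and 764 in GPR15negative cells, a difference of -0.13 that was 0.056 without GPR15positive replicate 2. All 3 probe sets of Jak1 thus had negative differences, but the third overlapped between groups.

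Jak2, the kinase of the interleukin-12 and interferon-gamma receptors and of many hormone receptors, had signals of 5108 and 4421 in GPR15positive cells, against 4238 and 4229 in GPR15negative cells. Replicate 1 of the GPR15positive cells stood highest, and the other 3 arrays lay close together. The difference was 0.17 (-0.36 to 0.69, adjusted p = 0.765), being 0.27 within replicate 1 and 0.064 within replicate 2, and it turned to -0.15 under median scaling. Its other probe set had 973 and 751 in GPR15positive cells, against 685 and 556 in GPR15negative cells, a difference of 0.46 (-0.16 to 1.08).

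Tyk2, the partner kinase of Jak2 at the interleukin-12 receptor, was measured by 2 probe sets that pointed in opposite directions. The chosen one had 85.1 and 85.4 in GPR15positive cells, against 110.2 and 81.6 in GPR15negative cells, so that the groups overlapped. The difference was -0.13 (-0.70 to 0.44, adjusted p = 0.834), with opposite signs within replicate 1 (-0.32) and replicate 2 (0.054). The other had 91.0 and 110.4 in GPR15positive cells, against 63.9 and 48.6 in GPR15negative cells, a difference of 0.69 (0.11 to 1.28) that did not pass over all probe sets (adjusted p = 0.329 from limma). No direction for Tyk2 can be read from these arrays. Jak3, the kinase that binds the common gamma chain, had 1 probe set of its own, and it was dim, at 30.5 and 37.5 in GPR15positive cells against 20.6 and 38.1 in GPR15negative cells. Its difference was 0.17 (-0.50 to 0.83, adjusted p = 0.821), or 0.35 within replicate 1 and -0.014 within replicate 2, and it was below 0 under each of the normalizations, at -0.062 (quantile), -0.069 (cyclic loess) and -0.045 (median scaling). Another 2 probe sets were annotated to Jak3 together with a second gene and were not used.

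The 5 STAT genes all had positive differences, with a median of 0.40, but Stat3 and Stat5a turned to -0.19 and -0.035 when arrays were scaled to equal medians, a step that shifted the typical gene by -0.28. Stat4 was the steadiest of them across replicate numbers. Its signals were 1702 and 1800.3 in GPR15positive cells, against 1302 and 1346 in GPR15negative cells. Both GPR15positive arrays lay above both GPR15negative arrays, and the spread within each group was small beside the gap. The difference was 0.40 (-0.11 to 0.91, adjusted p = 0.433), a 1.32-fold higher level, with 0.38 and 0.42 within the replicate numbers. Stat4 had no second probe set to set beside this value.

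Stat6 had the largest difference of the 9 genes and also the widest interval. Its signals were 496 and 550.3 in GPR15positive cells, against 258 and 509 in GPR15negative cells. Replicate 1 of the GPR15negative cells was low, and the other 3 arrays were alike. The difference of 0.50 (-0.35 to 1.36, adjusted p = 0.554) was 0.90 within replicate 1 and 0.11 within replicate 2, and without GPR15negative replicate 1 it was 0.04, against 0.97 without GPR15negative replicate 2. The second probe set of Stat6 had 104 and 90.6 in GPR15positive cells, against 90.7 and 92.2 in GPR15negative cells, a difference of 0.07.

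Stat5b, Stat5a and Stat3 are next to each other on chromosome 11 in the RefSeq order of protein-coding genes. They had 8 probe sets, all with positive differences and 7 with groups that did not overlap. Over all 21514 probe sets in the same fit, 57.2% had positive differences and 45.9% did not overlap. Probe sets of 1 gene read the same RNA, so they are not 8 independent measurements, and the 3 genes were set apart after their values were seen. The 250 bases before 1 annotated start of each gene are printed from RefSeq (GRCm38.p6). Stat5a and Stat5b each have another annotated start, and the printed pair of windows was chosen because it shared the longest exact run. The shared runs thus do not measure how far the paralogs Stat5a and Stat5b are alike. The printed Stat5b window lies downstream of the other Stat5b start, whose window is chr11:100850582-100850831 on the minus strand. Capitals mark the exact runs of at least 10 bases that the Stat5a and Stat5b windows share in the same order.
Stat3, chr11:100939541-100939790, minus strand: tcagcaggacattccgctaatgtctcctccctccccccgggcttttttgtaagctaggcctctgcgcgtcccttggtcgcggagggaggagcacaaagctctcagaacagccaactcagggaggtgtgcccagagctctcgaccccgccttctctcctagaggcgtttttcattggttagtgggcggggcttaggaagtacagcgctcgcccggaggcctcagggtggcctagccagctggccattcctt
Stat5a, chr11:100860234-100860483, plus strand: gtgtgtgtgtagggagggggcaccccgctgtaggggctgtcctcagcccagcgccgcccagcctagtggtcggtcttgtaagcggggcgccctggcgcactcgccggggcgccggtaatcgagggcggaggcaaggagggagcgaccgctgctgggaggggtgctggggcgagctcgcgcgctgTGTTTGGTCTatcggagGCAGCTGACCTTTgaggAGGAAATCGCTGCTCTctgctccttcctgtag
Stat5b, chr11:100822571-100822820, minus strand: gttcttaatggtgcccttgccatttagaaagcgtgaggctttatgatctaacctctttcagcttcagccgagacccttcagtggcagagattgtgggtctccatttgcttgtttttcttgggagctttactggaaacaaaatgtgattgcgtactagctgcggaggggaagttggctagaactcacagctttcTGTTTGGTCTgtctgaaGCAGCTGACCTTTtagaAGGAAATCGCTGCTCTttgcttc
The shared runs were 10, 13 and 16 bases long and lay near the printed starts in both genes. The STAT binding motifs TTCNNNGAA and TTCNNNNGAA, which read the same on both strands, were in 0 of the 12 windows of the 9 genes, against 7.02% and 5.85% of all 32851 windows.

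Stat5b had signals of 901 and 879 in GPR15positive cells, against 625 and 663 in GPR15negative cells. The groups were well apart, and the difference of 0.46 (-0.05 to 0.97, adjusted p = 0.378), or 1.37-fold, had the smallest p of the 9 genes. It was 0.52 and 0.40 within the replicate numbers. The second Stat5b probe set had 139 and 134 in GPR15positive cells, against 68.6 and 94.0 in GPR15negative cells, a difference of 0.66 (0.08 to 1.25).

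Stat5a had signals of 2589 and 2758 in GPR15positive cells, against 1896 and 2537 in GPR15negative cells. Replicate 1 of the GPR15negative cells was again the lowest array, and the difference of 0.28 (-0.31 to 0.87, adjusted p = 0.634) was 0.45 within replicate 1 and 0.12 within replicate 2. It was 0.074 without GPR15negative replicate 1. Its second probe set was dim, at 54.1 and 84.0 in GPR15positive cells against 19.0 and 38.2 in GPR15negative cells, with a difference of 0.94 (0.16 to 1.72).

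For Stat3 the value depended on which probe set was read. The chosen one, 1459961_a_at, had signals of 1341 and 1527 in GPR15positive cells, against 1048 and 1635 in GPR15negative cells. The GPR15negative arrays lay on either side of the GPR15positive arrays, and the difference was 0.13 (-0.57 to 0.82, adjusted p = 0.874). Its sign differed between replicate 1 (0.35) and replicate 2 (-0.098). The other 3 probe sets of Stat3 kept the groups apart. Probe set 1460700_at had 619 and 592 in GPR15positive cells, against 310.4 and 297 in GPR15negative cells, a difference of 0.96 (0.44 to 1.48) that was 0.96 within each replicate number. Probe set 1426587_a_at had 925 and 1204 in GPR15positive cells, against 624 and 657 in GPR15negative cells, a difference of 0.71 (0.12 to 1.29). The dim probe set 1424272_at had 57.5 and 54.2 in GPR15positive cells, against 27.8 and 26.8 in GPR15negative cells, a difference of 0.73 (0.21 to 1.25). Their adjusted p over all probe sets was 0.226, 0.323 and 0.284 from limma, so none passed. With trend and robust settings 1460700_at passed (adjusted p = 0.0382), and over its alternatives the adjusted p ran from 0.0382 to 0.489. With the mean of all 4 probe sets Stat3 had a difference of 0.63, the highest of the 9 genes in that fit.

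**Figure D2:**
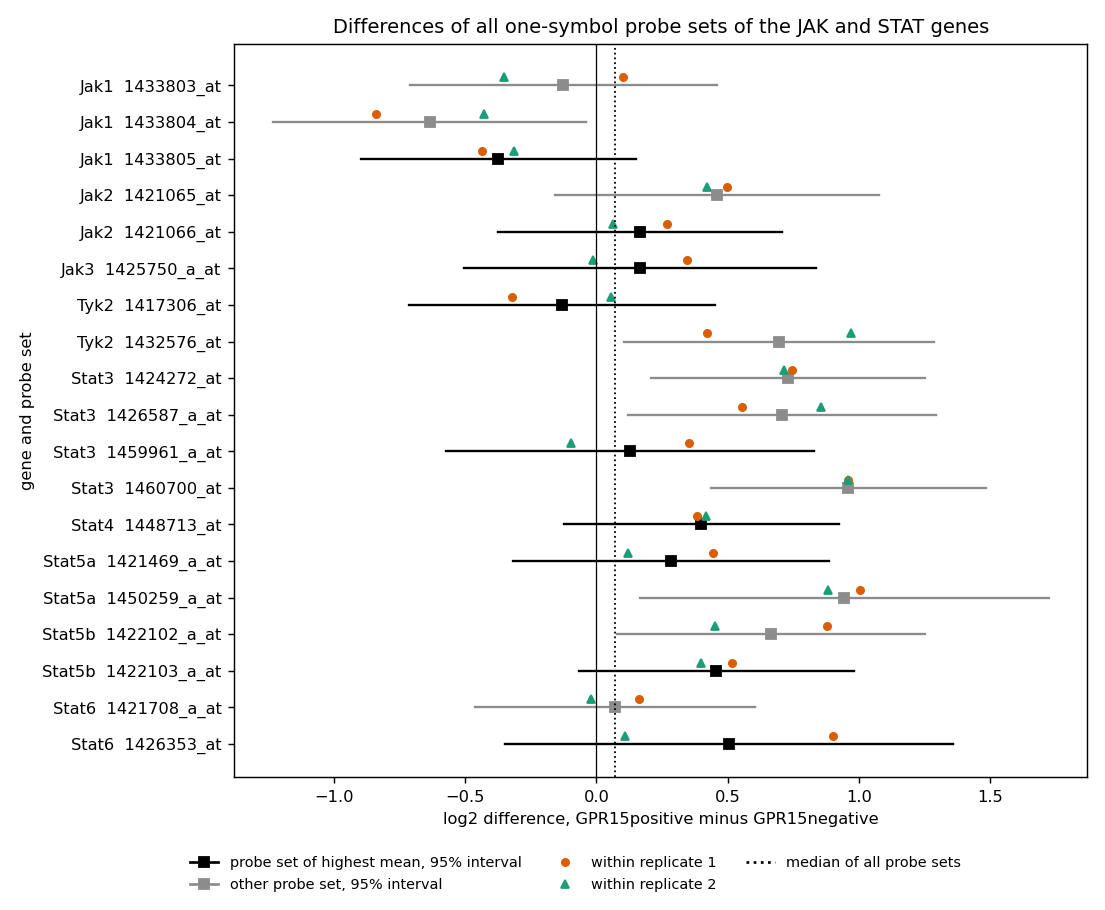
Log2 difference (GPR15positive minus GPR15negative) of each of the 19 one-symbol probe sets, from a fit over all probe sets, with 95% intervals and the differences within replicate 1 and replicate 2. Black squares are the probe sets of highest mean, grey squares the others; 3 of the 4 Stat3 probe sets lie between 0.71 and 0.96 while the chosen one lies at 0.13, and the 3 Jak1 probe sets lie below 0.

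Counted by probe set, 15 of 19 had positive differences, beside 57.2% of all 21514 probe sets in the fit. The groups did not overlap for 13 of 19, beside 45.9% of all probe sets in the fit. Of the 19, 11 lay higher in GPR15positive cells without overlap, beside 27.5% of all probe sets in the fit. An unadjusted p under 0.05 was reached by 7 of 19, all of them probe sets other than the chosen ones, where 13.1% of all probe sets reached it. Of these 7, the Jak1 probe set was lower and 6 were higher, namely 3 of Stat3 and 1 each of Stat5a, Stat5b and Tyk2. At an adjusted p under 0.05 limma called 0 of the 21514 probe sets. The 19 probe sets read 9 genes and are not independent measurements. In the fit by gene, 0 of the 9 had an unadjusted p under 0.05.

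Relative to the median of all tested genes, 7 of the 9 genes lay above it as deposited, 6 under quantile normalization and cyclic loess, and 7 under median scaling. Without 1 array the number was 4 without GPR15negative replicate 1, 5 without GPR15positive replicate 2, 6 without GPR15positive replicate 1 and 7 without GPR15negative replicate 2. Jak1 and Tyk2 were the genes below it as deposited, and Jak3 joined them under quantile normalization and cyclic loess. With the mean of probe sets 8 of the 9 lay above it, and Stat3, Stat5a and Stat5b then had the largest positive differences, at 0.63, 0.61 and 0.56.

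**Figure D3:**
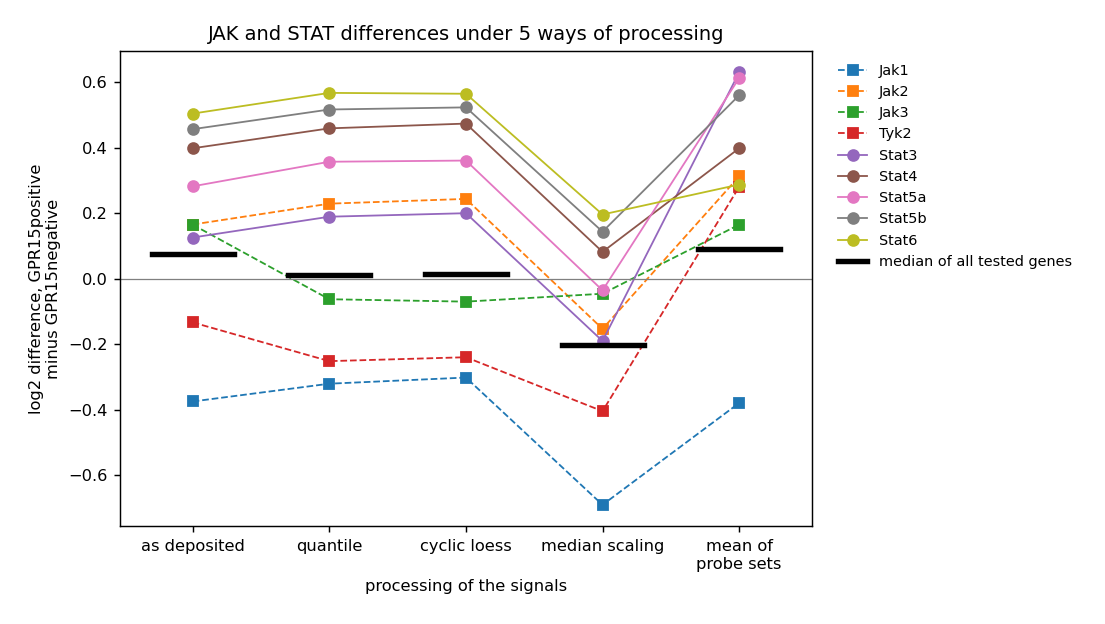
Log2 difference (GPR15positive minus GPR15negative) of each of the 9 genes under 5 ways of processing, with thick bars for the median of all tested genes; circles and solid lines are STAT genes, squares and dashed lines are JAK genes. The STAT genes keep their order under the normalizations, and Stat3 moves to 0.63 and Tyk2 to 0.28 with the mean of probe sets.

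Of 26 listed genes for chains of cytokine receptors that signal through JAKs, 21 were tested. None passed at an adjusted p under 0.05. At an unadjusted p under 0.05, 6 were higher (10.2% of all tested genes) and 1 was lower (4.37%), and the median difference was 0.37. Il2ra, whose product gives the interleukin-2 receptor its high affinity, had 950 and 919 in GPR15positive cells, against 445 and 336 in GPR15negative cells, a difference of 1.24 (0.66 to 1.82, adjusted p = 0.167 from limma). Il6ra, a gene of the interleukin-6 receptor, was the lower one. It had 85.6 and 54.7 in GPR15positive cells, against 233 and 244 in GPR15negative cells, a difference of -1.58 (-2.22 to -0.95, adjusted p = 0.145 from limma). Il6st, another gene of that receptor, was among the 6 higher ones. It had 836 and 848 in GPR15positive cells, against 486 and 632 in GPR15negative cells. Its difference was 0.59 (0.02 to 1.16, adjusted p = 0.337 from limma). Csf2rb and Il10rb had differences of 1.08 and 1.03, and the bright chains Il7r and Il27ra had 0.18 and -0.23. With the mean of probe sets the differences of Il6ra, Csf2rb and Il10rb were -0.88, 0.63 and 0.95. Csf2rb, a chain of the granulocyte-macrophage colony-stimulating factor receptor that other cytokine receptors share, is also a gene of myeloid cells. It had 86.3 and 132 in GPR15positive cells, against 51.8 and 33.5 in GPR15negative cells. The myeloid markers were highest on GPR15positive replicate 2, as was Csf2rb, and a link between them was not tested.

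Of 20 cytokine genes whose receptors signal through JAKs, 13 were tested, 0 passed, and the median difference was -1.18. The brightness filter used all 4 arrays. Il13, Il6 and Il7 entered with GPR15positive means of 23.5, 23.4 and 20.8, below its cut at 27.3. Left out as dim were Il3, Il9, Il12a and Il23a, with differences of 0.23, 0.18, 0.39 and 0.22, and Il15, with -0.92. The median thus describes the tested genes alone. At an unadjusted p under 0.05, 7 of the tested cytokine genes were lower (4.37% of all tested genes) and 2 higher (10.2%). Il21, a ligand whose receptor uses Jak1, Jak3 and STAT3, had 66.8 and 10.7 in GPR15positive cells, against 434 and 788 in GPR15negative cells, a difference of -3.68. Il13, Il5 and Csf2 had differences of -2.40, -1.93 and -1.90, and Ifng had -1.27. Il10, a ligand of a Jak1 and Tyk2 receptor, was the brightest of the list and had 4130.5 and 3825 in GPR15positive cells, against 1379 and 1198 in GPR15negative cells, a difference of 1.62.

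The inhibitors of the pathway showed no common direction. Of 20 listed genes 18 were tested and 0 passed, and the median difference was 0.06, beside 0.07 over all tested genes. At an unadjusted p under 0.05, 1 was higher (10.2% of all tested genes) and 0 lower (4.37%). That gene was Socs5, of the family of suppressors of cytokine signalling, with 258 and 223 in GPR15positive cells, against 145 and 108 in GPR15negative cells, a difference of 0.86. Socs2, a feedback inhibitor that STAT5 induces, had a difference of 0.40, the SUMO ligase gene Pias3, known for binding STAT3, had 0.38, and the phosphatase gene Ptpn11 had -0.47. Ptprc, which encodes CD45, had 0.03. The 8 partners of JAKs and STATs had a median of -0.22, with 0 of 8 at an unadjusted p under 0.05, where 14.6% of all tested genes were. Among them the coactivator genes Crebbp and Ep300 had differences of 0.00 and -0.39, the STAT-binding gene Nmi had -0.47 and the adaptor gene Stam2 had 0.47. Of the other STAT genes listed, Stat2 was measured and was dim, at 37.7 and 34.4 in GPR15positive cells against 25.8 and 13.3 in GPR15negative cells.

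**Figure D4:**
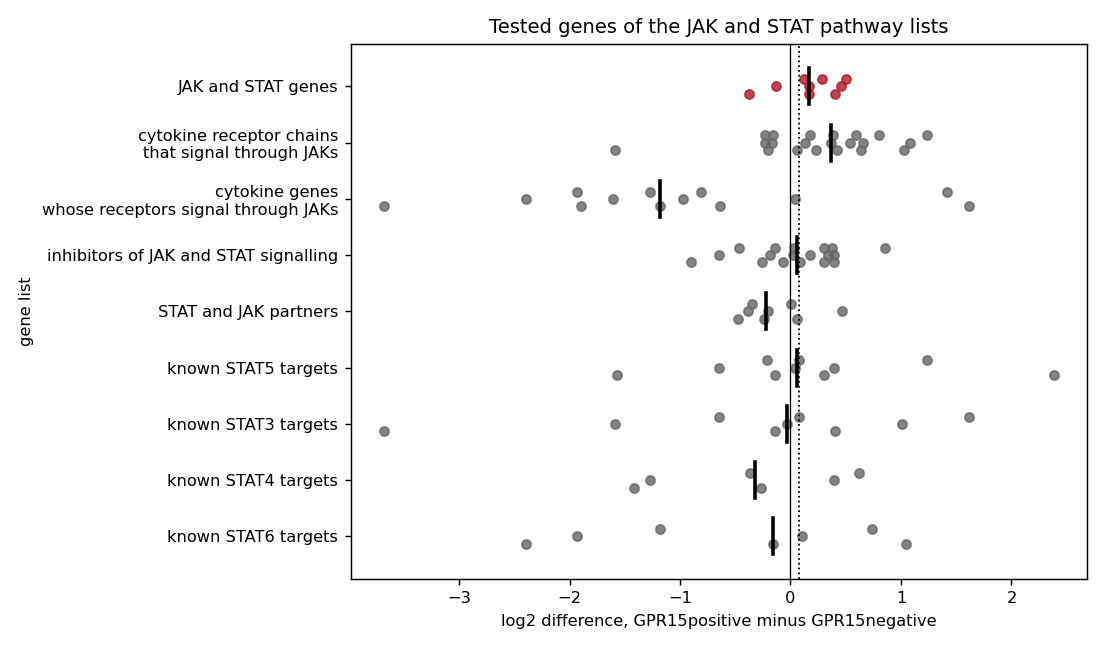
Log2 difference (GPR15positive minus GPR15negative) of each tested gene of the pathway lists, 1 point per gene, with a bar at each list's median and a dotted line at the median of all tested genes, 0.07. The cytokine genes have a median of -1.18, the receptor chains 0.37, and the 9 JAK and STAT genes lie between -0.37 and 0.50.

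Known targets of the 4 STAT factors spread over both directions, and 0 passed in any of the lists. The background for each list is 10.2% of all tested genes for the higher ones with an unadjusted p under 0.05. For the lower ones it is 4.37%. An excess of any list over these shares was not tested. The 10 tested STAT5 targets had a median of 0.06, and an unadjusted p under 0.05 was found for 2 higher and 1 lower of them. They included Foxp3 at 2.38, Il2ra at 1.24 and the survival gene Bcl2 at -1.57. Bcl2 had 138 and 111 in GPR15positive cells, against 465 and 339 in GPR15negative cells. The 9 tested STAT3 targets had a median of -0.03, with 2 higher and 2 lower at that p, among them Il10 at 1.62 and Bcl3 at 1.01, and Il21 and Il6ra at -3.68 and -1.58. The 6 tested STAT4 targets had a median of -0.32, with 1 higher and 2 lower at that p. They were Ifng at -1.27, its transcription factor gene Tbx21 at -1.42, Furin at -0.37, Irf1 at -0.27, Il18rap at 0.62 and Il18r1 at 0.40. The 7 tested STAT6 targets had a median of -0.16, with 1 higher and 3 lower at that p. They included the type 2 cytokine genes Il13, Il5 and Il4 at -2.40, -1.93 and -1.18, and Il4ra at -0.16. Nfil3 and Gata3 were at 1.05 and 0.73. Il13, counted among the 3 lower, had a GPR15positive mean of 23.5, below the brightness cut at 27.3. It entered through its GPR15negative signals, so its place in that count is no support for a lower level. Gata3 was 0.29 without GPR15negative replicate 2 and 1.18 without GPR15negative replicate 1. These lists share genes with those of the cytokines, receptor chains and regulatory T cells.

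The genes nearest to Stat6 and Stat5b, the pair with the largest differences, were taken by the Euclidean distance between centred log2 profiles over the 4 arrays. For Stat5b they were Exoc2, Dele1 and Eefsec, at distances of 0.0086, 0.023 and 0.027. For Stat6 they were Lman2, Foxf1 and Ccdc87, at distances of 0.065, 0.068 and 0.086. Exoc2, for example, had 146 and 142 in GPR15positive cells, against 97.6 and 105 in GPR15negative cells. These likenesses rest on 4 arrays. Within the family, Stat4 and Stat5b were nearest to each other, at 0.10, and so were Jak3 and Stat3, at 0.065. Both of these were highest on GPR15negative replicate 2 and lowest on GPR15negative replicate 1.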

How the data were processed

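Per the labels, total RNA of the sorted cells was labelled with biotin for Affymetrix arrays. What the authors deposited is 1 linear intensity per probe set and array. The software that summarised them is not given in the sources used here. Their mean after trimming 2% at each end was 150.0 on all 4 arrays, while medians were 46.0 and 45.2 on GPR15positive and 37.0 and 36.1 on GPR15negative arrays, so arrays had been scaled by a factor and not quantile normalized.

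Of 45101 probe sets, 34945 non-control ones had 1 gene symbol in the platform annotation. Each gene was read from its probe set of highest mean log2(intensity + 16), and genes brighter than 40% of the non-control probe sets (at a signal of 27.3) were tested two-sided with limma 3.58.1 in R 4.3.3, with group as the only term and Benjamini-Hochberg adjustment over 12252 genes. A second fit, added after seeing the data, tested each of 21514 one-symbol probe sets. These were the ones above the same brightness cut and, at any level, those of the JAK and STAT genes. The pseudocount understates differences of dim genes. The fit was checked on simulated data.

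The members and lists were chosen with earlier results of these data known. Named were all members, Gpr15, and of each list the 4 genes of largest difference without overlap and the 2 brightest. A few other genes are given beside them. Same-numbered arrays deviated together with a correlation of 0.198 over genes.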

Additional observations from a re-analysis of the deposited data

How the results depend on the processing

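Of the 9 JAK and STAT genes, 0 were called in the fit as reported and in all 15 alternatives (smallest adjusted p 0.216, for Jak1 under median scaling). The number of genes called over the whole array, 4 as reported, was 0 under quantile normalization, median scaling, cyclic loess, a pseudocount of 1, no dim filter, the replicate number as a block, without any 1 array (0 to 0) and with probe sets chosen by mean linear signal, an alternative added after seeing the data. At an unadjusted p under 0.05 these limma fits had 1211 to 2184 genes. It was 174 with a pseudocount of 64, 50 with the stricter filter, 8 with the mean of probe sets and 240 with trend and robust settings. With the replicate number as a block 0 JAK or STAT genes passed (smallest adjusted p 0.339). The replicate number goes with sex in both groups, but the labels do not say what it marks and there are only 2 pairs, so the fit without the block was kept. The median of the 9 genes was -0.045 under median scaling and ran from 0.053 without GPR15negative replicate 1 to 0.44 without GPR15negative replicate 2. Members without overlap numbered 8 of 9 with the mean of probe sets, where 46.8% of all tested genes had none, and 5 to 9 without 1 array, where 73.4% to 73.9% had none, since a lone array has no spread. The cause of the other shifts was not tested.

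Under median scaling the sign turned for Jak2 (-0.15), Jak3 (-0.045), Stat3 (-0.19), Stat5a (-0.035), Il7r (-0.14), Ptprc (-0.29), Crebbp (-0.32), Pim1 (-0.24), Maf (-0.24) and the second Stat6 probe set 1421708_a_at (-0.20). Quantile normalization turned Jak3 (-0.062), Hif1a (0.044) and that Stat6 probe set (-0.043), and cyclic loess turned them to -0.069, 0.048 and -0.025. The mean of probe sets turned Tyk2 (0.28), Ptprc (-0.14) and Ncoa1 (0.068). Without 1 array the differences ran from -0.12 to 0.45 for Jak3, -0.32 to 0.053 for Tyk2, -0.19 to 0.44 for Stat3, -0.31 to 0.056 for Jak1 probe set 1433803_at, -0.011 to 0.15 for Stat6 probe set 1421708_a_at, -0.51 to 0.044 for Il27ra, -0.036 to 0.093 for Ptprc, -0.081 to 0.085 for Crebbp, -0.018 to 0.18 for Pim1, -0.29 to 0.0046 for Ccnd2, -0.059 to 0.21 for Maf and -0.15 to 0.089 for Hif1a. Differences that kept their sign but moved by over 1.5 times without GPR15negative replicate 1 included those of Nmi (-0.20), Bcl3 (0.62), Il10rb (0.63), Il4 (-0.71), Ifng (-0.81), Tbx21 (-0.94) and Il5 (-1.27). Jak1, Stat4, Stat5b and Stat6 kept their sign in all 15 alternatives.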
